A study of Mus musculus with 6 samples.

Results

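The transcripts described here are those that bring glucose into the cell, break it down to pyruvate and lactate, pass pyruvate on to the mitochondrion and divert glucose phosphate to the pentose phosphate pathway. The genes were chosen by name: 42 were listed, and 38 of them had a probe set with a single matching gene symbol, among 18193 genes measured. Gpi1, Pfkfb1, Eno1 and G6pdx were not matched by name and were not analysed here. RNA came from the uterus of female Gata2 f/f mice on a mixed background. All mice had been ovariectomized at 6 weeks of age, and at 8 weeks they received sesame oil (3 arrays) or 1 mg of progesterone in 100 µl of sesame oil (3 arrays), with tissue taken 6 h later. Both groups carry the floxed Gata2 allele, and the sample descriptions name no recombinase. RNA was described as pooled from the uteri of 3 mice, without saying whether every array held its own pool. The p-values therefore reflect only how far these samples differ from each other, and some of that may be technical. The question was which of these transcripts differ soon after progesterone.

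Glucose enters through facilitative transporters of the Slc2a (GLUT) family and is trapped by hexokinases. Phosphofructokinase is the main control point of glycolysis and is activated by a sugar bisphosphate that the bifunctional Pfkfb enzymes make and remove. Pyruvate becomes lactate through lactate dehydrogenase or acetyl-CoA through pyruvate dehydrogenase, which the Pdk kinases switch off. In the uterus, progesterone prepares the stroma and epithelium for implantation, and the decidual cells that form from the stroma are known for high glucose uptake.

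After progesterone, 6 genes passed the test. The transporter Slc2a3, the regulatory enzyme Pfkfb3, the lactate carrier Slc16a1 and the kinase Pdk3 were higher. The transporter Slc2a8 and the kinase Pdk2 were lower, and the other 32 measured genes did not pass the test (limma, Benjamini-Hochberg adjusted p under 0.05 over all 18193 genes). These 6 of 38 genes made 15.8%, beside 11.7% of all genes that passed in either direction, 5.92% higher and 5.83% lower. The 42 genes were listed with earlier results of these data known, so this share is not a test of them. With the replicate number of the labels as a block, 7 were higher and 3 lower, beside 16.1% of all genes (7.6% higher and 8.49% lower): Hk2, Slc2a12 and Ldha joined those that rose and Aldoc those that fell, and all 6 kept their calls. The median change of the 38 genes was 0.05 on the log2 scale and that of all genes -0.02. In 16 of the 38 (42.1%) the arrays of the groups did not overlap, 7 higher and 9 lower, beside 30.4% of all genes (14.5% higher and 15.9% lower). An unadjusted p under 0.05 was found for 16 of the 38, beside 26% of all genes.

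**Figure D1:**
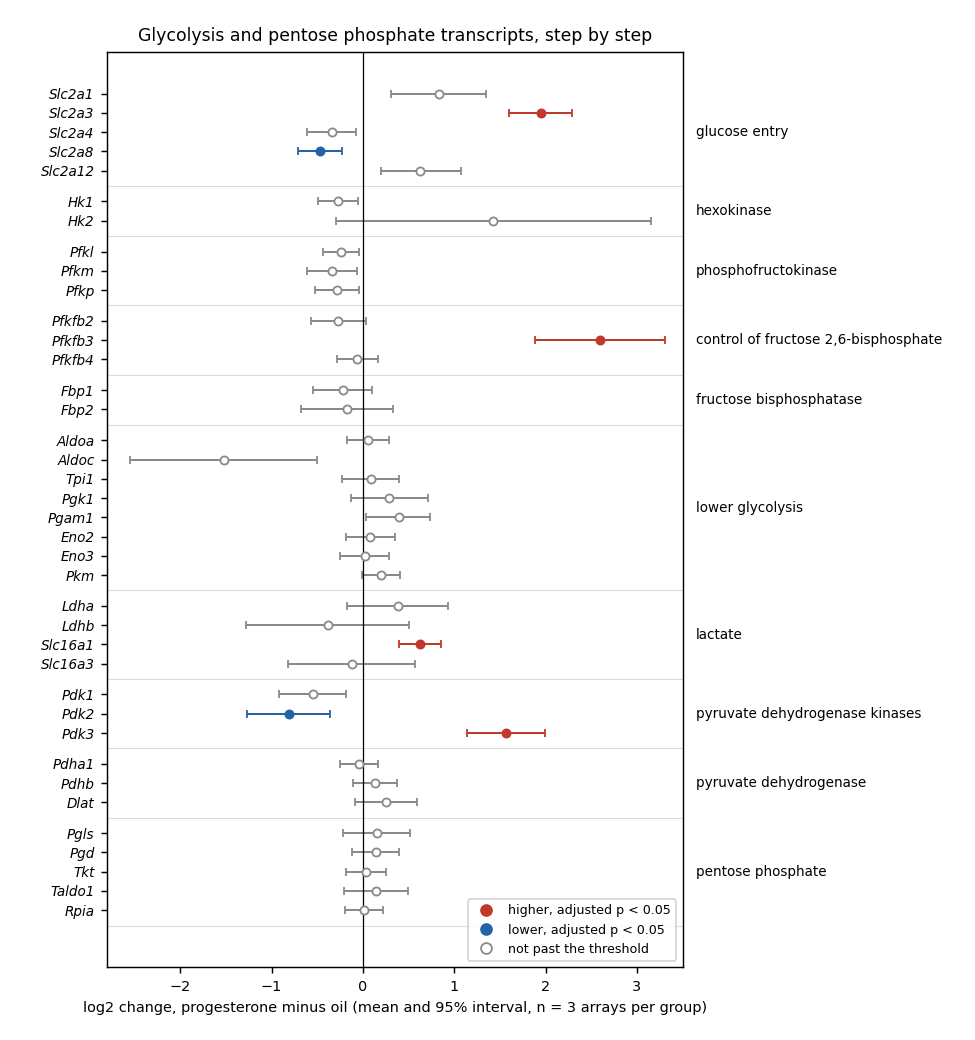
Change after progesterone of each measured gene, ordered by pathway step. The horizontal axis is the log2 change, progesterone minus oil, with its 95% interval from limma (n = 3 arrays per group); filled red points were higher, filled blue points lower and open points not past the threshold. Pfkfb3 (2.60), Slc2a3 (1.95) and Pdk3 (1.57) lie furthest to the right, and the 5 pentose phosphate genes lie between 0.01 and 0.15.

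Promoter windows from RefSeq (GRCm38.p6) are shown so that start regions can be read beside the values. They are given for Pfkfb3, 1 of the 2 largest rises past the threshold without the block, and for Pdk2 and Slc2a8, which fell past it. The other of these rises, Slc2a3, had no window under its symbol and was not searched. Each window runs 5′ to 3′ on the strand of the gene, which is the minus strand for all of them, from 250 bases before to 50 after an annotated start. Capitals mark ACGTG or CACGTG, the core letters bound by hypoxia-inducible factors and by E-box factors such as Myc and the Mlx partners. Pfkfb3 has 2 annotated starts. In its window at chr2:11502041-11502340, CACGTG begins at position -53 from the start, and in its window at chr2:11553880-11554179, ACGTG begins at position -60. Pdk2 has CACGTG at position -126 of chr11:95041322-95041621. The window of Slc2a8 at chr2:32982034-32982333 and the other Pdk2 window at chr11:95040826-95041125 hold none of the letters searched.
Pfkfb3, chr2:11502041-11502340: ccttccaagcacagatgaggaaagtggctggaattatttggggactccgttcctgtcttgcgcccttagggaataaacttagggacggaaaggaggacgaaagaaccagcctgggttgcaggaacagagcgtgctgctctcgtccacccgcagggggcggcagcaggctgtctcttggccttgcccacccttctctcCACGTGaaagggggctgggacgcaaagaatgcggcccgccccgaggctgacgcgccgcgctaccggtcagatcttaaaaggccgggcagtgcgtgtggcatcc
Pfkfb3, chr2:11553880-11554179: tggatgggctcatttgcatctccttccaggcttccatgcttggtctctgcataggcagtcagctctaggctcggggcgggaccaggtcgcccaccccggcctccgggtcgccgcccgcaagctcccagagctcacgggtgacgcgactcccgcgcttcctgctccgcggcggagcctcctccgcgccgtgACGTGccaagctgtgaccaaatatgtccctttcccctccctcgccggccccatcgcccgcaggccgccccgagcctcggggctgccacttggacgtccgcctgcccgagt
Pdk2, chr11:95041322-95041621: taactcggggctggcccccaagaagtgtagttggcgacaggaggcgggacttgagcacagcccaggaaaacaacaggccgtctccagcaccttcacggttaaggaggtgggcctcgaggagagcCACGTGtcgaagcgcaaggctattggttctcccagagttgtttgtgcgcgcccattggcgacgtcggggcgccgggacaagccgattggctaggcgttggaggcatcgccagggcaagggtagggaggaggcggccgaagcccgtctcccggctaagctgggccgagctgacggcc
Slc2a8, chr2:32982034-32982333: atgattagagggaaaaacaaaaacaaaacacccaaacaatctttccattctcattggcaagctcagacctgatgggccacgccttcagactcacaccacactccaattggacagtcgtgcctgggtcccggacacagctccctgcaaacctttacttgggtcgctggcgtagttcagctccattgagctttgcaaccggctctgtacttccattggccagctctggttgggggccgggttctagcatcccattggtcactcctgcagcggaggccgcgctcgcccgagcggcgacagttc

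At glucose entry, 1 of 5 transporters was higher and 1 lower, beside 5.92% and 5.83% of all genes. In all 5 the arrays of the groups did not overlap, beside 30.4% of all genes. Slc2a3 encodes GLUT3, a transporter with high affinity for glucose. Its level (log2; RMA summarises each probe set once arrays have been background-corrected and brought to 1 distribution) was 9.96, 9.82 and 9.55 on the oil arrays 1, 2 and 3, and 11.95, 11.61 and 11.61 on the progesterone arrays 1, 2 and 3. The groups stood far apart, and the progesterone arrays lay close together. Slc2a3 rose 3.85-fold (1.95 ± 0.146 SE on the log2 scale, limma adjusted p = 0.00137), and all 4 of its probe sets passed when every probe set was tested on its own, with log2 changes from 0.65 to 2.02. The smaller of these changes came from probe sets with a mean level of 3.70 and 3.90, close to that of the TrpnX controls, which have no mouse target and reached 3.34.

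Slc2a1 encodes GLUT1, the widespread transporter of basal glucose uptake. It measured 8.76, 9.15 and 9.27 after oil and 10.32, 9.55 and 9.80 after progesterone. All progesterone arrays lay above all oil arrays, with progesterone 1 well above the other two. The log2 change of 0.83 ± 0.219 SE (1.78-fold, 95% interval 0.31 to 1.35) just missed the threshold (limma adjusted p = 0.0533). Its other probe sets gave 0.88 and 0.77 and passed when every probe set was tested on its own (limma adjusted p = 0.0407 and 0.046).

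Slc2a12 encodes GLUT12 and measured 7.74, 7.75 and 7.45 after oil and 8.66, 8.20 and 7.98 after progesterone. The groups did not overlap, and the log2 change of 0.63 passed with the replicate block (limma adjusted p = 0.0204) but not without it (0.0719).

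Slc2a8, which encodes the intracellular transporter GLUT8, went the other way. It measured 7.46, 7.67 and 7.58 after oil and 7.20, 6.98 and 7.11 after progesterone, with no overlap. Slc2a8 fell 1.39-fold (-0.47 ± 0.103 SE on the log2 scale, limma adjusted p = 0.0289). The call held in 1 of 6 fits that left out an array, the one without progesterone 1, and the adjusted p in these fits ranged from 0.0399 to 0.11.

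Slc2a4, which encodes the insulin-responsive transporter GLUT4 of fat and muscle, measured 7.73, 7.92 and 7.96 after oil and 7.66, 7.54 and 7.38 after progesterone (log2 change -0.34, limma adjusted p = 0.101). These arrays did not overlap. Its other probe set passed when every probe set was tested on its own (-0.42, limma adjusted p = 0.0452), and so did the mean of its probe sets (-0.38, adjusted p = 0.0196). Levels of adipocyte markers are given beside it: 4 of 6 listed markers were measured, none at background on all arrays, and their summed level ran from 8.07 to 8.91 after oil and from 6.85 to 8.19 after progesterone. Adipoq, the adipocyte hormone adiponectin, measured 8.02, 8.11 and 7.08 after oil and 5.80, 7.21 and 4.39 after progesterone. None of the 4 markers passed without the replicate block. With it 3 passed as lower: Adipoq (limma adjusted p = 0.0135), Cidec (0.0338) and Retn (0.0116). The part of fat RNA in the values of Slc2a4 was not tested. In whole tissue, fewer cells of a type and less RNA per cell cannot be told apart.

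**Figure D2:**
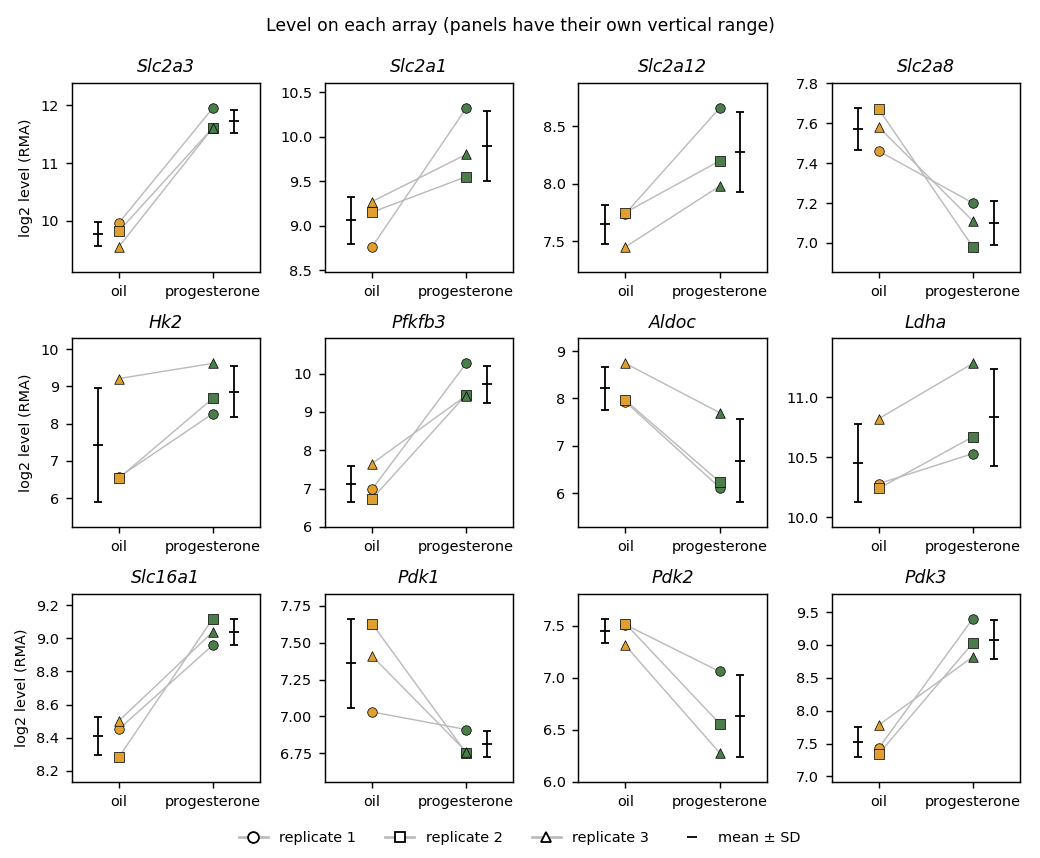
Level on each array for the 6 genes past the threshold and 6 others that missed it narrowly or passed with the replicate block. The vertical axis is the log2 RMA level, with its own range in each panel; grey lines join arrays with the same replicate number, and bars give the mean ± SD of 3 arrays. Slc2a3, Pfkfb3 and Pdk3 rise on all 3 lines, and in the panel of Hk2 the oil array 3 (9.21) lies among the progesterone arrays.

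Of the 2 hexokinases measured, neither passed the test. Hk2, the inducible mitochondria-bound isozyme, measured 6.56, 6.53 and 9.21 after oil and 8.27, 8.68 and 9.62 after progesterone. Oil array 3 lay above 2 of the 3 progesterone arrays, so the groups overlapped. The log2 change of 1.42 ± 0.732 SE (95% interval -0.30 to 3.15) gave a limma adjusted p of 0.283. With the replicate block it passed (limma adjusted p = 0.0297), and without both arrays numbered 3 the change was 1.93 (adjusted p = 0.0096). Of 6 fits that left out an array it passed in 1, the one without oil replicate 3 (2.31, limma adjusted p = 0.0202). In these 6 fits the change ran from 0.97 to 2.31 and the limma adjusted p from 0.0202 to 0.583. Within the replicate numbers 1, 2 and 3 the progesterone array exceeded the oil array by 1.71, 2.15 and 0.41.

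Oil array 3 also carried markers of other cells. The neutrophil transcript S100a8 measured 4.92, 4.34 and 11.82 after oil and 5.01, 12.02 and 12.48 after progesterone, and 6 of 7 neutrophil markers were measured, none at background on all arrays. Their summed level ran from 6.57 to 12.73 after oil and from 6.73 to 13.32 after progesterone. The liver transcript Alb measured 8.71 on oil array 3 and between 3.96 and 4.29 on the other arrays. Of 6 listed liver markers 5 were measured, and their summed level was 6.89, 6.47 and 9.68 after oil and 8.84, 8.87 and 8.64 after progesterone. Among them Ttr went the other way: it measured 5.61, 4.81 and 7.44 after oil and 8.63, 8.67 and 8.38 after progesterone, and passed as higher (limma adjusted p = 0.0334). The part of these cells in the values of Hk2 was not tested. Hk1, the housekeeping isozyme, was 9.47, 9.48 and 9.29 after oil and 9.17, 9.16 and 9.10 after progesterone. Its arrays did not overlap, and its log2 change of -0.27 did not pass (limma adjusted p = 0.114).

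None of the 3 phosphofructokinase genes passed, and all 3 had lower levels on every progesterone array than on any oil array, as had 15.9% of all genes. Pfkl (liver type) had a log2 change of -0.24, Pfkm (muscle type) of -0.34 and Pfkp (platelet type) of -0.28, with limma adjusted p between 0.105 and 0.126 (unadjusted 0.0191 to 0.026). Pfkm, for example, measured 8.54, 8.54 and 8.52 after oil and 8.37, 8.21 and 7.99 after progesterone. The 95% intervals of all 3 lay below 0, down to -0.61 for Pfkm.

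At the control of phosphofructokinase, 1 of 3 Pfkfb genes differed, and it had the largest rise of all 38. Pfkfb3 encodes the isozyme whose kinase activity far exceeds its phosphatase activity, so it favours glycolysis. It measured 6.98, 6.73 and 7.65 on the oil arrays and 10.27, 9.45 and 9.43 on the progesterone arrays. The lowest progesterone array lay 1.78 above the highest oil array on the log2 scale. Pfkfb3 rose 6.05-fold (log2 change 2.60 ± 0.302 SE, 95% interval 1.89 to 3.31, limma adjusted p = 0.00428). A dimmer probe set, with a mean level of 4.24, gave a log2 change of 0.66 (adjusted p = 0.0124 over all probe sets). Pfkfb2, the heart isozyme, had a log2 change of -0.27 and Pfkfb4 of -0.06, and neither passed (limma adjusted p = 0.241 and 0.772). Fbp1 and Fbp2, the fructose bisphosphatases that run the step backwards, had log2 changes of -0.22 and -0.17 with overlapping arrays. Fbp1 measured between 3.46 and 4.05, not far above the TrpnX controls.

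Along lower glycolysis, from aldolase to pyruvate kinase, 0 of 8 genes passed without the block (limma), and 2, Aldoc and Pgam1, had an unadjusted p under 0.05. The exception in size was Aldoc, the aldolase known from brain. It measured 7.93, 7.96 and 8.74 after oil and 6.12, 6.24 and 7.70 after progesterone, with all progesterone arrays below all oil arrays. The log2 change of -1.52 ± 0.435 SE (2.87-fold) missed the threshold (limma adjusted p = 0.0677). It passed with the replicate block (0.00435) and without both arrays numbered 3 (-1.76, limma adjusted p = 0.00605). Among 6 fits that left out an array it passed in 1, the one without progesterone replicate 3 (log2 change -2.03, limma adjusted p = 0.0127). Over these 6 fits the change ran from -2.03 to -1.24 and the limma adjusted p from 0.0127 to 0.194. The other 7 genes, Aldoa, Tpi1, Pgk1, Pgam1, Eno2, Eno3 and Pkm, had log2 changes from 0.02 for Eno3 to 0.39 for Pgam1, none past the threshold with or without the block. Pkm, the pyruvate kinase of most tissues, measured 9.70, 9.66 and 9.83 after oil and 9.93, 9.89 and 9.97 after progesterone, separate by a small step (log2 change 0.20, limma adjusted p = 0.214). Among the 38 genes, 5 were read from probe sets of the suffix x_at and 2 of the suffix s_at, which by the maker's naming can also bind related transcripts. Aldoa, Ldhb, Dlat, Pgd and Tkt are of the first kind, Slc2a3 and Slc2a12 of the second.

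At lactate, the carrier differed without the block and the dehydrogenases did not. Slc16a1 encodes MCT1, which moves lactate and pyruvate together with a proton. It measured 8.45, 8.28 and 8.50 after oil and 8.96, 9.12 and 9.04 after progesterone. The groups were separate and each was narrow. Slc16a1 rose 1.55-fold (0.63 ± 0.0993 SE on the log2 scale, limma adjusted p = 0.0107). Its other probe set, at a mean level of 3.27 within the TrpnX range, had a change of 0.11. Slc16a3, the lactate exporter MCT4, measured 3.32, 3.22 and 4.34 after oil and 3.45, 3.32 and 3.74 after progesterone, at or little above background.

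Ldha, the subunit known to favour lactate formation, measured 10.28, 10.24 and 10.82 after oil and 10.53, 10.67 and 11.28 after progesterone. These groups overlapped, although the progesterone array was the higher within every replicate number, by 0.25, 0.43 and 0.46. Its log2 change of 0.38 did not pass (limma adjusted p = 0.38), and passed once the block was fitted (0.0451). Ldhb, the subunit of heart, measured 11.18, 11.44 and 12.25 after oil and 10.91, 10.81 and 12.00 after progesterone (log2 change -0.38, limma adjusted p = 0.608, and 0.0698 with the block).

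At the gate into the mitochondrion the kinases of pyruvate dehydrogenase moved in opposite directions. Pdk3 measured 7.43, 7.34 and 7.78 after oil and 9.40, 9.03 and 8.82 after progesterone. The groups lay more than 1 apart on the log2 scale. Pdk3 rose 2.96-fold (1.57 ± 0.18 SE on the log2 scale, limma adjusted p = 0.00413). Pdk2, the widely expressed isozyme, measured 7.51, 7.52 and 7.31 after oil and 7.06, 6.56 and 6.28 after progesterone. Its groups did not overlap, with progesterone array 1 the closest to oil. Pdk2 fell 1.76-fold (-0.81 ± 0.195 SE on the log2 scale, limma adjusted p = 0.0393, and 0.0144 with the block). The call of Pdk2 held in 1 of 6 fits that left out an array, the one without progesterone 1, and the adjusted p ranged from 0.0117 to 0.135.

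Pdk1, the isozyme known as a target of hypoxia-inducible factors, measured 7.03, 7.63 and 7.41 after oil and 6.91, 6.75 and 6.76 after progesterone. Its arrays did not overlap, and its log2 change was -0.55 (limma adjusted p = 0.0682, and 0.0623 with the block). Its 4 probe sets gave changes from -0.66 to -0.43. Pdk1 passed in 1 of 6 fits that left out an array, the one without oil replicate 1. The limma adjusted p in these fits ranged from 0.0347 to 0.188. Pdk4, which stands outside the 42 genes but is the fourth kinase of the family, measured 7.61, 7.75 and 7.86 after oil and 5.90, 6.10 and 5.84 after progesterone, a 3.47-fold fall (log2 change -1.79). The subunits of the enzyme itself, Pdha1, Pdhb and Dlat, had log2 changes of -0.04, 0.13 and 0.25, and none passed (limma adjusted p from 0.348 to 0.86).

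In the pentose phosphate pathway, which makes NADPH and ribose, 0 of 5 measured genes passed (limma), and 0 had an unadjusted p under 0.05. Pgls and Pgd, of the oxidative branch, had log2 changes of 0.15 and 0.14. Tkt, Taldo1 and Rpia, of the non-oxidative branch, had changes of 0.03, 0.14 and 0.01. The 95% intervals bound these differences: the widest ran from -0.22 to 0.52 (Pgls), and that of Rpia from -0.20 to 0.22. Rpia measured 9.46, 9.41 and 9.32 after oil and 9.47, 9.42 and 9.34 after progesterone, nearly the same values in both groups. Of 8 further genes of this pathway and of ribose use, 0 passed and 2 had an unadjusted p under 0.05.

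Isozymes of a step were also compared as a ratio on each array. Each gene of a pair is read by its own probe set, so a ratio does not say which transcript is more abundant. Only its shift between groups is read. Of 18 pairs that serve the same step, 15 could be measured, and in 9 the ratio did not overlap between groups. Of single genes, 30.4% did not overlap, and the share for pairs of other genes was not computed. The pairs are not separate results: several share Slc2a1 or Pfkfb3, and several hold a gene already past the threshold. With 3 arrays per group the exact permutation test (two-sided, 20 splits) cannot give a p below 0.1, which these 9 pairs reached (0.167 adjusted over the 15 pairs), so no ratio passes a threshold of 0.05. The log2 ratio of Pfkfb3 to Pfkfb2 was -0.83, -1.01 and -0.19 after oil and 2.49, 2.11 and 1.97 after progesterone, a shift of 2.87 (7.29-fold). For Pdk3 to Pdk2 it went from -0.08, -0.18 and 0.47 to 2.34, 2.47 and 2.54, a shift of 2.38 (5.21-fold). The progesterone arrays varied little around the shifted ratio, with an SD of 0.101.

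The ratio of Slc2a3 to Slc2a1 went from 1.20, 0.67 and 0.28 to 1.63, 2.06 and 1.81 on the log2 scale, a shift of 1.12. Here too the groups were apart. Ldhb to Ldha went from 0.90, 1.20 and 1.43 to 0.38, 0.14 and 0.72, a shift of -0.76, although neither gene alone was apart between groups. The ratio of Hk2 to Hk1 shifted by 1.69 with overlap (exact permutation p = 0.3, n = 3 arrays per group). That permutation does not use the replicate numbers, within which this ratio was higher after progesterone by 2.01, 2.47 and 0.60. With the mean of all probe sets of a gene, the shift of Pfkfb3 to Pfkfb2 was 1.62, that of Slc2a3 to Slc2a1 was 0.57 and that of Aldoc to Aldoa, -1.59 with 1 probe set per gene, was -0.85. These ratios describe the arrays at hand, and do not show that either gene of a pair stayed the same.

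**Figure D3:**
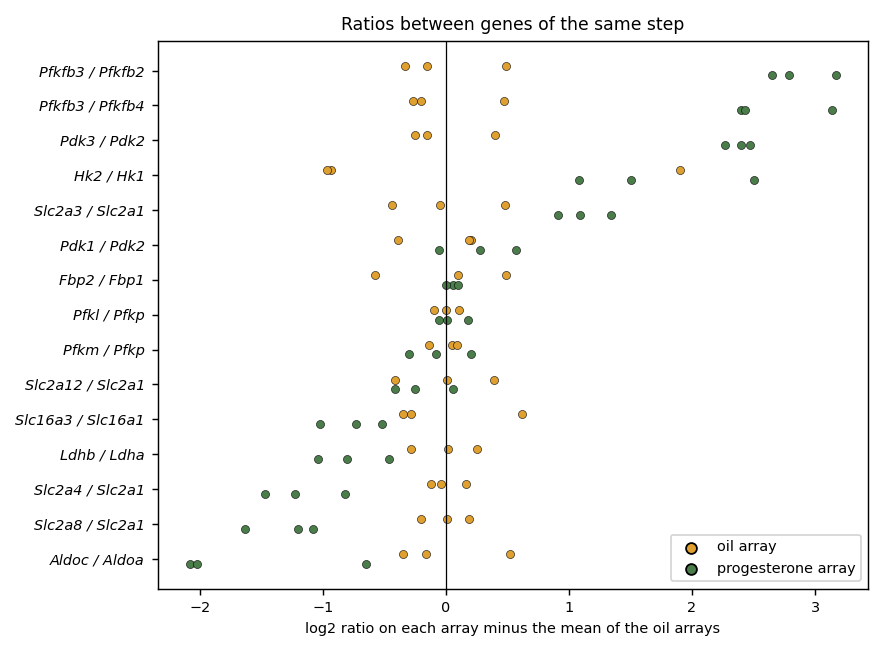
Log2 ratio between genes of the same step on each array, minus the mean of the oil arrays for that pair. Each point is 1 array, orange for oil and green for progesterone, with 3 of each per pair. The green points of Pfkfb3 to Pfkfb2 lie about 2.87 to the right of the orange ones, and those of Aldoc to Aldoa lie to the left (shift of -1.59).

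Several genes stood high on both arrays numbered 3. On the arrays numbered 3, Hk2 was above the mean of the other arrays of its group by 2.67 after oil and by 1.14 after progesterone. Aldoc was above by 0.80 and 1.52, Ldhb by 0.94 and 1.14, Ldha by 0.56 and 0.68, and Pgk1 by 0.38 and 0.51. The genes with the largest rises did not share this pattern: Pfkfb3 was above by 0.80 after oil and below after progesterone (-0.43), Pdk3 likewise (0.40 and -0.39), and Slc2a3 was below in both (-0.34 and -0.17). The labels do not say what a number shares. Without both arrays numbered 3, 6 genes passed, 5 higher and 1 lower, beside 5.65% of all genes (3.22% higher and 2.42% lower): Slc2a3, Pfkfb3, Slc16a1 and Pdk3 kept their calls, Hk2 and Aldoc passed, and Slc2a8 and Pdk2 no longer did (limma adjusted p = 0.124 and 0.0946).

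**Figure D4:**
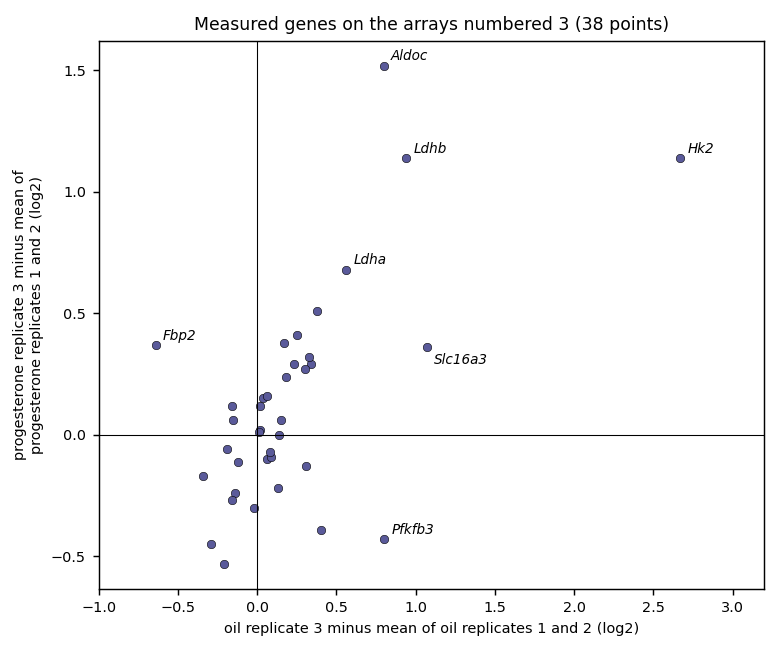
Position of the arrays numbered 3 within their groups for the 38 measured genes. The horizontal axis is oil array 3 minus the mean of oil arrays 1 and 2, the vertical axis the same for progesterone, both in log2 units, and each point is a gene. Hk2 (2.67 and 1.14), Aldoc (0.80 and 1.52) and Ldhb (0.94 and 1.14) stand out toward the upper right.

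S100a8 was above 11 on 3 arrays, oil 3 and progesterone 2 and 3. Without these, 2 oil arrays remain against 1 progesterone array, whose spread is assumed to be that of the oil arrays. In that fit 0 of 18193 genes passed (limma), while 3379 had an unadjusted p under 0.05, among them 9 of the 38. Of those that rose, Slc2a3 (2.06), Pfkfb3 (3.42) and Pdk3 (2.02) had larger changes than with all arrays, and Slc16a1 a slightly smaller one (0.60, against 0.63). These changes rest on progesterone array 1 alone, which was the highest of its group for Slc2a3, Pfkfb3 and Pdk3 and the lowest for Slc16a1. The changes of those that fell were smaller, at -0.37 for Slc2a8 and -0.46 for Pdk2. The summed endothelial markers, of which 6 of 6 were measured, ran from 11.46 to 11.95 after oil and from 11.13 to 11.24 after progesterone, lower without overlap. Of these markers Cldn5 passed as lower (log2 change -0.91, limma adjusted p = 0.0217). With the replicate block Pecam1 (limma adjusted p = 0.0293) and Tek (0.0352) passed as lower too. The summed skeletal muscle markers ran from 9.53 to 9.83 after oil and from 10.56 to 11.45 after progesterone, higher without overlap. Of 8 skeletal muscle markers Acta1 alone passed (1.58, limma adjusted p = 0.0149), and Myh1 and Myh4 were at background on all arrays. Acta1 was the brightest of the 8, and 5 of the 8 had log2 changes below 0. The sums of uterine epithelium (13.74 to 13.93, and 13.43 to 14.07) and stroma (14.58 to 14.75, and 14.45 to 14.72) overlapped. The brightest markers carry such sums, and single markers passed: Hoxa11 (1.13), Hoxa10 (0.88) and Hand2 (0.64), 3 of 7 stromal markers, and Cldn3 (1.15), 1 of 8 epithelial markers, were higher. With the block the stromal markers Col1a1 (limma adjusted p = 0.0338) and Vim (0.0355) also passed, Col1a1 as higher and Vim as lower. Of the 8 epithelial markers 5 had log2 changes below 0, as had 3 of the 7 stromal ones. The epithelial marker Krt18 (-0.76) was lower without overlap. It did not pass (limma adjusted p = 0.0589, and 0.0532 with the block). Smooth muscle ran from 15.20 to 15.23 after oil, with 2 of 3 progesterone arrays below that range and the other at 15.26. No marker of epithelium, stroma, smooth muscle or endothelium was at background on all arrays. What cell content contributes to the other differences was not tested.

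Around these genes, 128 further genes of glucose metabolism and its control were listed in 8 groups, and 120 were measured. Of these 15 were higher and 18 lower (27.5%, beside 11.7% of all genes), with a median log2 change of -0.01. Among other genes of glucose entry and glycolysis, 3 of 19 were higher and 0 lower. Tigar, a phosphatase that lowers the activator made by Pfkfb3, was 1.97-fold higher (5.51, 5.26 and 5.88 after oil, 6.44, 6.45 and 6.70 after progesterone). Adpgk, an ADP-dependent glucokinase, had a log2 change of 0.69 and Bpgm, which makes the bisphosphoglycerate of red cells, of 0.49. In gluconeogenesis 1 of 5 genes passed, Pck2, the mitochondrial PEP carboxykinase, which was lower (-0.55).

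Of 10 other genes of pyruvate and lactate handling, 1 was higher and 2 were lower. Beside Pdk4, the lower gene was Emb, embigin, a chaperone of lactate carriers, which fell from 9.34, 9.53 and 8.74 to 8.57, 7.55 and 7.93 (2.28-fold). Dld, the dehydrogenase subunit shared by several complexes, was higher by 0.34 on the log2 scale (limma adjusted p = 0.0469, and 0.0593 with the block).

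Among 20 genes of glycogen, hexosamine and polyol metabolism, 5 were higher and 2 lower. Gnpnat1, of hexosamine synthesis, had a log2 change of 0.86, Pgm2, a phosphoglucomutase, of 0.73, and Ugp2, which makes UDP-glucose, of 0.72. Gfpt1, the entry enzyme of the hexosamine pathway, and Gys1, muscle-type glycogen synthase, were each 1.61-fold higher. Ppp1r3b, a subunit that directs a phosphatase to glycogen, was lower (-0.80), as was Pygl, glycogen phosphorylase (-0.48). Among 20 genes of the citric acid cycle and its NADP-linked side enzymes, Idh3a (0.66) and Cs, citrate synthase (0.44), were higher and Me1, malic enzyme, was lower (-0.47).

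Of 26 regulators, 2 were higher and 9 lower. Hif1a, the oxygen-regulated subunit of the hypoxia-inducible factor, measured 11.33, 11.33 and 11.52 after oil and 12.44, 12.20 and 11.93 after progesterone, 1.74-fold higher. Mlx, the partner of the glucose-sensing Mlxip proteins, had a log2 change of 0.70, while Mlxip itself was lower (-0.36, limma adjusted p = 0.0496). The largest falls were those of Irs2, an adaptor of insulin signalling (-1.47), Ppargc1a, a coactivator of mitochondrial genes (-1.38), Txnip, which restrains glucose uptake (-1.09), and Pgr, the progesterone receptor itself (-1.06). Txnip measured 12.53, 12.75 and 12.45 after oil and 11.68, 11.45 and 11.33 after progesterone, with no overlap. Its relative Arrdc4 was 1.65-fold lower. Insr, the insulin receptor, had a log2 change of -0.36 (limma adjusted p = 0.0447) and no longer passed with the block (0.0545). Myc had a log2 change of 0.70 and missed the threshold (limma adjusted p = 0.0571, and 0.0148 with the block).

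Of 12 hypoxia-responsive genes outside glucose metabolism, 2 were higher and 3 lower. Of the 12 changes, 6 were above 0 and 6 below, with a median of 0.01 on the log2 scale. P4ha2, a collagen prolyl hydroxylase, was 3.80-fold higher and Higd1a, a mitochondrial protein induced by low oxygen, 2.42-fold higher. Mxi1, an antagonist of Myc, was 2.27-fold lower and Kdm3a, a histone demethylase, 1.64-fold lower. Ndrg1 was 1.39-fold lower (log2 change -0.47, limma adjusted p = 0.0231). Vegfa, the vascular growth factor, and Adm, adrenomedullin, both known targets of hypoxia-inducible factors, had log2 changes of 0.41 and 0.48 and did not pass (limma adjusted p = 0.192 and 0.173). With the block both passed (0.0489 and 0.0251). Bnip3 and Ankrd37 went the other way, with log2 changes of -0.26 and -0.61, and did not pass with or without the block.

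**Figure D5:**
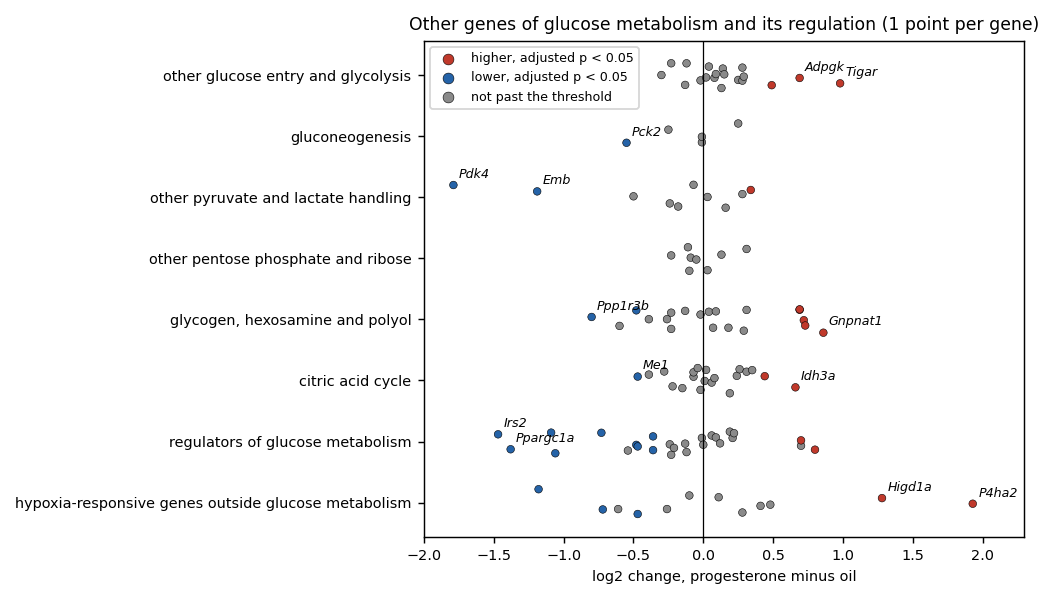
Log2 change after progesterone, progesterone minus oil, of 120 further genes in 8 groups, 1 point per gene, spread vertically for legibility. Red points were higher and blue points lower at the threshold, and grey points did not pass. Pdk4 (-1.79), Irs2 (-1.47) and Ppargc1a (-1.38) lie furthest left and P4ha2 (1.93) and Higd1a (1.28) furthest right.

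Promoter letters were counted in the RefSeq windows of 36 of the 38 genes, 51 windows in all, and in 32851 windows of the whole table, on both strands. Slc2a3 and Slc2a4 had no window and were not searched. ACGTG was found in 22 of the 51 windows (43.1%), belonging to 18 genes, and in 19.6% of all windows. CACGTG, which contains ACGTG on either strand, was in 7 (13.7%) and in 7.15% of all. The windows of these genes were also richer in G and C, with a median of 60.7% against 52.7%, and genes with several starts count more than once. Genes whose arrays overlapped hold the letters as well: ACGTG was found for Aldoa and Pdhb, and among those that passed for Pfkfb3, Pdk3, Slc16a1 and Pdk2, in both directions. AGAACA, the half-site letters of steroid receptors, was in 19.6% of the windows and 19.0% of all. The GATA-type letters AGATAA were in 11.8% and 11.2%, and TGATAA in 9.80% and 9.05%. TGACGTCA, the cyclic AMP element, was in 1.96% and 1.79%. A match gives letters in a window, and not a bound site.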

How the data were processed

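Total RNA of 6 uterine samples was measured on 1-colour Affymetrix arrays, 3 per group. The authors deposited log2 values for 45101 probe sets; the tools named, per the submitters' processing notes, are Partek 6.6 and RMA. Further settings: not given in the sources used here. RMA's quantile normalization gives all arrays like distributions (array medians 5.51 to 5.53), so changes are relative to the other genes. Scanner files and detection calls were not used here; the TrpnX controls (2.87 to 3.34) stand for background. Gene names came from the platform annotation: 34945 probe sets had 1 symbol, 932 had several and 9160 had none. Per gene, the probe set with the highest mean was used.

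Groups came from the sample labels. All 18193 genes were fitted with limma 3.58.1 in R 4.3.3 (two-sided; lmFit, then eBayes, with neither a block nor a filter on dim genes), with Benjamini-Hochberg adjustment and a threshold of 0.05. The procedure was tested on simulated data. Replicate numbers occur in both groups, and across genes the deviations of arrays with equal numbers from their group means had correlations of 0.523, 0.141 and 0.636. All are above 0.1, so by a fixed rule the numbers pair the samples. This is a hint from the data; oil 2 correlated better with progesterone 1 (0.322). Values with the block stand beside the named genes whose call it changes.

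The genes, the lists and the cell type markers were chosen with earlier results of these data known. Genes past the threshold were named, and up to 4 of each further list by size of change. Hif1a, Mlx, Mlxip, Myc, Arrdc4, Insr, Gfpt1, Gys1, Pygl, Vegfa, Adm, Ndrg1, Bnip3 and Ankrd37 were named after their values were seen. Isozyme ratios were compared by exact permutation of the arrays. Promoter windows and coordinates are from RefSeq GRCm38.p6. The alternatives were another quantile normalization, median centring, adding 32 to linear values, dropping the dimmest 25% or 50% of genes, the mean of probe sets, each probe set alone, trended and robust eBayes, the block, leaving out each array, a threshold of 0.01 and a change of at least 1.5-fold. The fits without both arrays numbered 3, and without the 3 arrays with S100a8 above 11, were chosen after seeing the data.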

Additional observations from a re-analysis of the deposited data

How the results depend on the processing

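Slc2a3, Pfkfb3, Slc16a1 and Pdk3 passed in all 6 fits that left out 1 array. Of the 38 genes, 6 passed in the fit as reported (4 higher, 2 lower). Leaving out the lowest 50% of genes gave 10 (4 lower), the replicate block 10 (7 higher) and an adjusted p of 0.01 gave 3 (0 lower). The counts over all genes moved in the same direction, but not to the same extent. Relative to the fit as reported, the 38 rose more than all genes without the lowest 50% and with the block. At 0.01 they fell less. The counts of the 38 are small, and whether their shifts differ from those of all genes was not tested. Without the lowest 50%, more genes passed in each direction although fewer were tested. With the block 16.1% of all genes passed, beside 11.7% as reported, and at 0.01 fewer passed. Of the further genes named, the block ended the calls of Dld (adjusted p = 0.0593) and Insr (0.0545). A minimum of 1.5-fold left 1 lower gene. Without both arrays numbered 3, 1 gene was lower, and without the 3 arrays with S100a8 above 11 the counts were 0, 0 higher and 0 lower. Leaving out 1 array gave 4 to 6 genes, 4 to 5 higher and 0 to 2 lower. In each of these fits fewer of all genes passed than as reported, both higher and lower. The cause was not tested, beyond the smaller number of arrays. Of the further listed genes, 33 passed as reported, 12 to 26 without 1 array, 17 without both arrays numbered 3, 0 without the 3 arrays and 12 at an adjusted p of 0.01.

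Of the values of single genes under an alternative, 632 kept direction and side of the threshold, 24 passed where the reported one did not, 23 no longer passed and 21 changed sign. No gene that passed changed sign. Pfkfb2 changed to 0.01 with the mean of probe sets and 0.22 with the next probe set, and Pdha1 to 0.08 and 0.19, and to 0.01 with median centring. Tkt and Rpia changed to -0.01 and -0.01 with quantile normalization. Without both arrays numbered 3, Slc16a3 was 0.12 and Tkt -0.06. Without the 3 arrays with high S100a8, Pfkfb4 was 0.04, Slc16a3 0.18, Pgls -0.02 and Tkt -0.05. With 1 array left out, the changes ranged from -0.04 to 0.17 for Tpi1, -0.04 to 0.11 for Eno3, -0.33 to 0.23 for Slc16a3, -0.02 to 0.06 for Tkt and -0.02 to 0.05 for Rpia. Fbp1, Slc16a3 and the second probe sets of Slc16a1 and Aldoc lie close to background. The number of arrays limits precision.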
